A study of Oryza sativa with 12 samples.

Results

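The rice mutant nup1 had higher transcript levels of fatty acid and polyketide enzymes for pollen wall precursors than wild type at anther stage 10. Transcripts of several of the most abundant listed genes of wild type were reduced more than 10-fold. These statements concern 3358 genes, out of 3453 in the stage 10 table and 7087 in either stage's table. They are all listed genes with a mean of 1 or more FPKM (fragments mapped to a gene, scaled to its transcript length and to the library's total) over the 6 stage 10 libraries. The table holds only genes that the authors had already selected as differing between the genotypes, so unchanged genes were not analysed here. The authors' direction column was not used to choose genes. The values nearest that limit were 1.01 FPKM for the lowest gene kept and 0.997 for the highest gene left out.

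Poly(A) RNA was sequenced from anthers of wild-type rice and of the nup1 mutant, at stages 10 and 11, with 3 biological replicates for each genotype and stage. The 2 groups compared here are wild type at stage 10 and nup1 at stage 10, with 3 libraries each. The labels name no cultivar and no agent or treatment, and they do not say which gene is mutated in nup1, so no targeted gene could be checked. The study's title links an oxidative burst to loss of the tapetal Ubisch bodies and to male sterility.

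The tapetum is the innermost layer of the anther wall and feeds the developing pollen. Its cells make fatty acid and phenolic precursors of sporopollenin, the tough polymer of the pollen wall, and export them with the help of transporters and small lipid-carrying proteins. Ubisch bodies are sporopollenin-coated particles on the tapetal surface, and the tapetum later dies by a regulated programme in which proteases take part. In whole anthers, fewer cells of a type and less RNA per cell cannot be told apart.

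Wild-type replicate 2 stood apart from its groupmates. Across the 3358 genes, which are not independent replicates, its log2(FPKM + 1) values had a Pearson's r of 0.946 and 0.922 with the other wild-type libraries, against 0.967 between those. Of 2123 genes called in a fit without this library, it lay beyond both groupmates and away from nup1 in 1405 (66.2%), and beyond them towards nup1 in 338 (15.9%). For wild-type replicates 1 and 3 the shares away from nup1 were 14.8% and 6.61%. Among nup1 libraries, replicate 3 lay away from wild type in 47.4% of genes, and replicates 1 and 2 in 18.6% and 22.2%. Wild-type replicate 2 thus lay farther from nup1 than its groupmates in most of these genes. Many of the changes that rest on it are given with and without it. Without it 2123 genes passed the threshold used below, 1155 higher and 968 lower in nup1, and without nup1 replicate 3 the count was 1683 (892 higher, 791 lower).

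**Figure D1:**
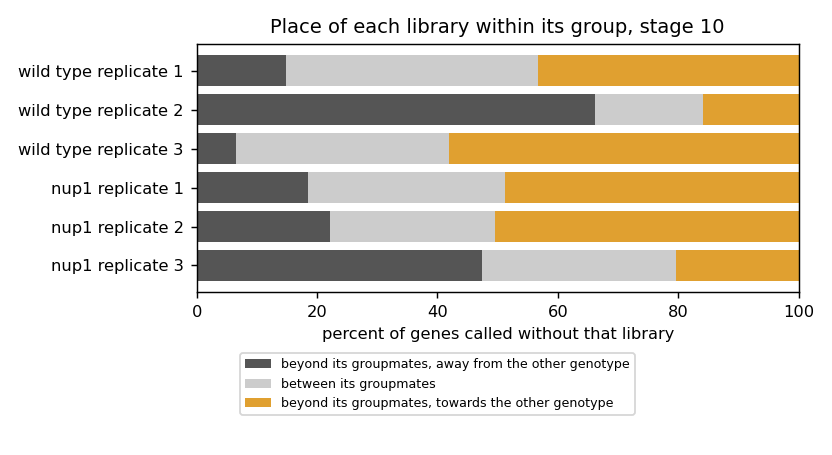
Share of genes (percent, horizontal axis) in which each stage 10 library lay beyond both its groupmates away from the other genotype, between them, or beyond them towards the other genotype, among genes called in the fit without that library. Wild-type replicate 2 lay away from nup1 in 66.2% of genes, the largest share of the 6 libraries.

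The same library also lay on the stage 11 side of its group, a check chosen after its values were seen. Among the 1416 of the 3358 genes also listed at stage 11, 195 differed over 2-fold between wild-type replicates 2 and 1 and also between the stage 11 wild-type mean and replicate 3. In 186 of these (95.4%) both differences had the same sign. With the baselines exchanged the count was 185 of 200 (92.5%). For replicate 3 against replicate 1, with replicate 2 as the stage 11 baseline, it was 22 of 37 (59.5%). The 2 tables were made separately and hold only selected genes, so these are descriptions of library order and not tests.

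Levels below are FPKM, either per library in replicate order or as mean ± SD (n = 3 libraries). A change is the nup1 mean of log2(FPKM + 1) less that of wild type, given ± its standard error (SE), with an adjusted p from limma with Benjamini-Hochberg adjustment over all 3358 genes. Adding 1 FPKM understates the change of genes with low values. A gene passed at an adjusted p under 0.01 with a fold over 2. By that rule 2449 genes passed, 1338 higher and 1111 lower in nup1, which is 72.9% of the genes fitted, 39.8% higher and 33.1% lower. The table was selected for such genes, so a list's count is read against these shares. The libraries of the genotypes did not overlap in 94.9% of genes. Fits without 1 library rest on fewer libraries, and most of them passed fewer genes. A call lost in such a fit therefore need not mean that the change rested on that library.

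The genes that passed differed in level between the directions. Those lower in nup1 had a median wild-type mean of 20.8 FPKM and a median nup1 mean of 4.63, and those higher had medians of 3.47 in wild type and 14.5 in nup1. Among genes that passed, 197 lower and 138 higher genes averaged 100 FPKM or more in the higher genotype, and 20 and 12 averaged 1000 or more. Changes over 3 on the log2 scale numbered 129 lower and 116 higher, and those over 5 numbered 27 and 19. In 57 genes the mean was under 1 FPKM in wild type and 10 or more in nup1, and in 30 genes the reverse held.

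Scaling moved the balance of directions. Genes lower in nup1 made up 45.4% of calls with values as deposited, 57.8% after median centring (962 higher, 1319 lower) and 53.8% after quantile normalization (1096 higher, 1277 lower). Median centring moved the median log2 change over all fitted genes from 0.85 to 0.66, and quantile normalization moved it to 0.59. Because every gene had been selected as changed, no unchanged genes fix the scale.

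**Figure D2:**
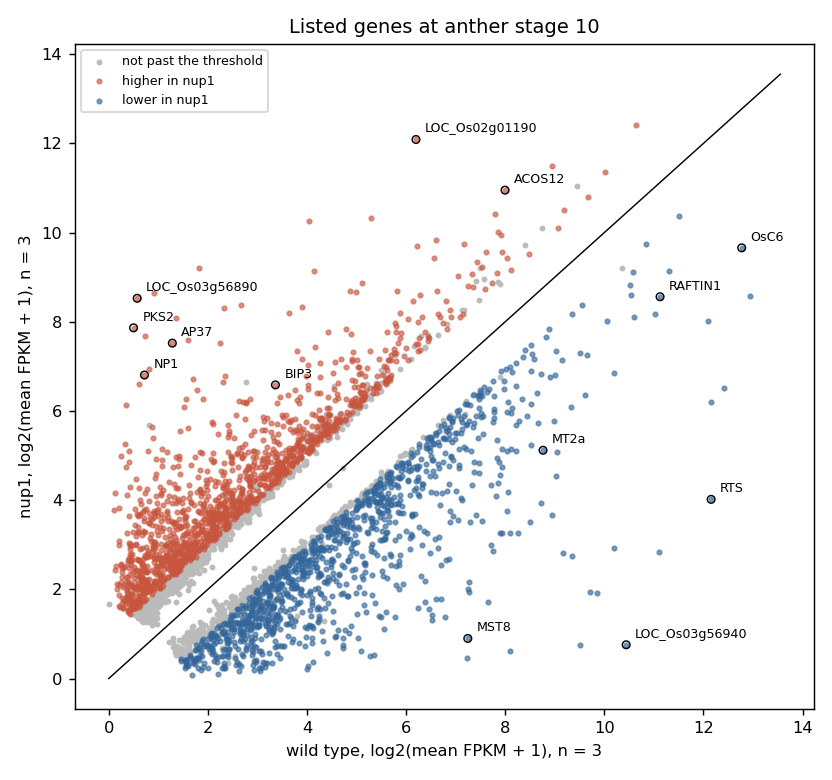
Mean level of each of the 3358 genes in wild type (horizontal) and nup1 (vertical), as log2(mean FPKM + 1) over 3 libraries each, with genes that passed the threshold in colour. The table holds genes the authors selected as changed, yet 400 higher and 299 lower genes had an absolute log2 change of 1 or less. RTS, OsC6 and LOC_Os03g56940 lie far below the line while PKS2, AP37 and LOC_Os03g56890 lie far above it.

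The fatty acid and polyketide enzymes of sporopollenin precursor synthesis used here were higher in nup1. Of the phenylpropanoid enzymes, given further below, 4 of 5 fitted members fell past the threshold. All 16 members used from the pollen wall and cuticle list were fitted. Of these, 10 passed as higher and 4 as lower, where 39.8% and 33.1% of all fitted genes did. The other 2 did not pass. The median change of the 16 was 2.03, beside 0.85 over all fitted genes. The list was chosen with earlier results known. Members whose symbol could not be matched were kept only if an earlier account of these data names them. ABCG3 and GPAT3 were listed at stage 10 but left out by that rule. The count and the median may follow in part from this choice and are descriptions only. Members of like role did not always go the same way: the lipid transfer proteins OsC4 and OsC6 had changes of opposite sign, as had the transporters ABCG15 and ABCG26.

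Fatty acid activation and hydroxylation come first in the pathway. ACOS12 (LOC_Os04g24530), an acyl-CoA synthetase, stood at 217, 140 and 406 FPKM in the wild-type libraries and at 1416, 2262 and 2258 in nup1. It was the 6th most abundant gene in nup1 among those listed. The change was 3.06 ± 0.42 SE (adjusted p = 0.000282), and the groups did not overlap. CYP703A3 (LOC_Os08g03682), which hydroxylates fatty acids within the chain, had 36.9, 5.93 and 50.1 FPKM in wild type and 333, 423 and 456 in nup1. Wild-type replicate 2 was the lowest of its group, and the change of 4.08 ± 0.65 became 3.19 without it. CYP704B2 (LOC_Os03g07250), a hydroxylase of the fatty acid end, had means of 231 ± 98.9 FPKM in wild type and 1039 ± 110 in nup1, a change of 2.26 ± 0.36. DPW (LOC_Os03g07140), a reductase that makes fatty alcohols, had means of 92.9 ± 47.1 and 686 ± 116, a change of 2.99 ± 0.39.

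The polyketide branch held the widest ratio among the higher members of the list, that of PKS2, but also PKS1 with one of 3.38. PKS2 (LOC_Os07g22850), a polyketide synthase, was at 0.318, 0.396 and 0.533 FPKM in wild type and at 141, 342 and 213 in nup1. It was thus under 1 FPKM in every wild-type library, and its change of 7.27 ± 0.33 (adjusted p = 2.15e-06) ranged from 6.95 to 7.58 when single libraries were left out. PKS1 (LOC_Os10g34360), a second polyketide synthase, was already at 159 ± 59.5 FPKM in wild type and at 538 ± 114 in nup1. TKPR1 (LOC_Os09g32020), a reductase acting on the polyketide products, rose from 4.07 ± 1.10 FPKM to 59.2, 157 and 109 in the nup1 libraries (change 4.35 ± 0.36). In PKS2 and TKPR1 nup1 replicate 1 was the lowest mutant library, but it stayed far above each wild-type value.

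Other members on the higher side act in wall assembly or export. NP1 (LOC_Os10g38050), an oxidoreductase needed for the exine and Ubisch bodies, was at 0.174, 1.48 and 0.291 FPKM in wild type and at 15.3, 208 and 109 in nup1. Its mutant libraries differed more than 10-fold among themselves, and the change of 5.54 ± 0.80 became 4.77 without nup1 replicate 2 and 6.61 without nup1 replicate 1. ABCG15 (LOC_Os06g40550), a transporter that exports lipid precursors, rose from 26.1, 10.0 and 44.0 to 208, 232 and 245 FPKM (change 3.27 ± 0.46, and 2.71 without wild-type replicate 2). STRL2 (LOC_Os03g15710), a strictosidine synthase-like protein of the tapetum, rose by 1.39 ± 0.32, a call lost without nup1 replicate 2 (adjusted p = 0.0144) or replicate 3 (adjusted p = 0.0158). The lipid transfer protein OsC4 (LOC_Os08g43290) missed the threshold at a change of 1.39 ± 0.44 (adjusted p = 0.0139). It passed without wild-type replicate 3 (1.76, adjusted p = 0.00491).

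The lower members include some of the genes with the highest wild-type means among those listed. OsC6 (LOC_Os11g37280), a lipid transfer protein that carries lipids from tapetum to anther locule and wall, stood at 7243, 7194 and 6535 FPKM in wild type and at 794, 934 and 691 in nup1. The groups were narrow and far apart, and the change was -3.12 ± 0.29 (adjusted p = 4.88e-05). RTS (LOC_Os01g70440), a tapetal gene required for fertility, was at 2759, 6687 and 4223 FPKM in wild type and at 3.79, 40.3 and 1.48 in nup1. Its mutant libraries spread more than 20-fold, with nup1 replicate 2 the highest, yet the change of -9.08 ± 0.89 was the second largest fall of all. RAFTIN1 (LOC_Os08g38810), a protein carried on Ubisch bodies, was at 2342, 2588 and 1763 FPKM in wild type and at 321, 427 and 382 in nup1 (change -2.56 ± 0.29).

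The remaining 2 members had means about 2-fold lower in nup1. CER1 (LOC_Os02g40784), an enzyme of alkane synthesis, fell from 472 ± 60.0 to 229 ± 34.2 FPKM (change -1.04 ± 0.26). Its call was lost without wild-type replicate 1 (adjusted p = 0.0231) or any single nup1 library (adjusted p = 0.014, 0.014 and 0.0122 without replicates 1, 2 and 3), and under quantile normalization (adjusted p = 0.0128). ABCG26 (LOC_Os10g35180), a transporter like ABCG15, had 88.8, 120 and 89.4 FPKM in wild type and 55.0, 45.1 and 50.3 in nup1. Its groups did not overlap, but its change of -0.96 ± 0.24 stayed under the fold limit and so did not pass. It passed without wild-type replicate 3 (-1.03, adjusted p = 0.0075) and after median centring (-1.16).

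**Figure D3:**
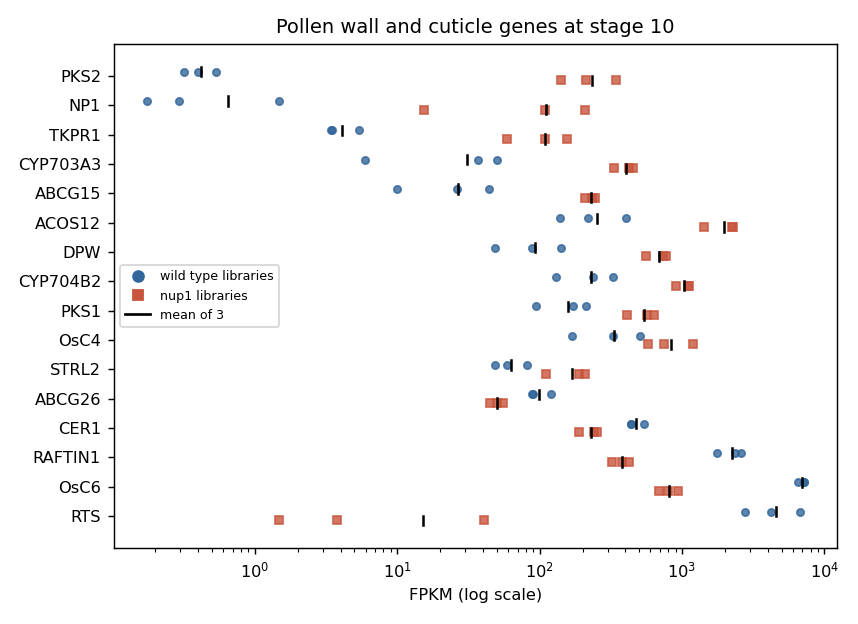
FPKM (log axis) of the 16 pollen wall and cuticle genes in the 3 wild-type and 3 nup1 libraries at stage 10, with a bar at each group's mean. Precursor enzymes such as PKS2 (0.416 against 232 FPKM) lie higher in nup1, and RTS, OsC6 and RAFTIN1 lie higher in wild type.

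Proteases of tapetal cell death were higher in nup1. Of 4 members of the tapetal cell death list, 3 were listed, all of them proteases. All 3 passed as higher, where 39.8% of all fitted genes did. This list too was chosen with earlier results known, and an earlier account of these data names all 3. The count is therefore a description only. AP37 (LOC_Os04g37570), an aspartic protease, was at 1.07, 1.24 and 2.00 FPKM in wild type and at 134, 170 and 245 in nup1 (change 6.21 ± 0.29, adjusted p = 2.17e-06). AP25 (LOC_Os03g08790), a related aspartic protease, was at 237, 93.1 and 393 FPKM in wild type and at 725, 1098 and 1126 in nup1. AP37 thus was near 1 FPKM in wild type, while AP25 was already expressed in wild type. The AP25 change of 2.22 ± 0.49 no longer passed without nup1 replicate 2 (adjusted p = 0.0125) or replicate 3 (adjusted p = 0.0126). Without wild-type replicate 2 the AP25 change was 1.66. CP1 (LOC_Os04g57490), a cysteine protease, rose from 7.95, 3.56 and 11.5 to 53.7, 52.8 and 65.5 FPKM (change 2.86 ± 0.36).

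Of 8 tapetum regulators only PTC1 and TDL1A were listed at this stage. The PHD-finger protein PTC1 (LOC_Os09g27620), which controls tapetal development and its death, was at 1.70, 0.309 and 1.35 FPKM in wild type and at 25.4, 32.6 and 28.9 in nup1 (change 3.88 ± 0.31). TDL1A (LOC_Os12g28750), a small secreted ligand that acts in tapetum specification, had 2.22, 9.63 and 3.04 FPKM in wild type and 1.59, 2.01 and 3.04 in nup1. Its groups overlapped, wild-type replicate 2 alone stood clear, and the change was -0.71 (adjusted p = 0.131) with that library and -0.19 (adjusted p = 0.469) without it.

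The members used from the lists on oxidants held few changes past the threshold. RbohG (LOC_Os09g26660), a respiratory burst oxidase that makes superoxide, was the only 1 of 5 family members listed. It was at 9.10, 7.52 and 12.7 FPKM in wild type and at 22.4, 20.7 and 20.3 in nup1, a change of 1.06 ± 0.25 (adjusted p = 0.0038). The groups did not overlap, but among fits without 1 library the call was kept only in that without wild-type replicate 3. Without wild-type replicate 1 or any nup1 library the adjusted p lay between 0.0129 and 0.0155, and without wild-type replicate 2 the change was 0.91. Median centring (0.87), quantile normalization (0.93) and a pseudocount of 5 (0.84) also ended it.

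Of the 16 oxidant-removing enzymes used 5 were fitted and 0 passed in limma, where 72.9% of all fitted genes did. CATC, entered in this list, was listed at stage 10 but left out because its symbol could not be matched. Its value was not read here, so the 0 holds only for the members used. The unadjusted p was under 0.05 for each of the 5, and the adjusted p was under 0.01 for 4 of them, as in 83.3% of all fitted genes at any fold. The cytosolic superoxide dismutases SODCC1 (LOC_Os03g22810) and SODCC2 (LOC_Os07g46990) shared a pattern. SODCC1 had means of 165 ± 23.0 FPKM in wild type and 81.9 ± 4.82 in nup1 (change -0.995 ± 0.24, adjusted p = 0.00371). SODCC2 had means of 106 ± 17.4 and 54.6 ± 2.63 (change -0.93 ± 0.24, adjusted p = 0.00501). Both missed the threshold on fold alone, and both passed after median centring (-1.19 and -1.13). SODCC1 passed as well without wild-type replicate 1 (-1.08) or replicate 3 (-1.02). The ascorbate peroxidases APX5 and APX3 had changes of -0.88 ± 0.23 and 1.16 ± 0.35, and MDAR1, which regenerates ascorbate, had 0.79 ± 0.20 at under 2 FPKM. APX3 passed without wild-type replicate 3 (1.44, adjusted p = 0.00397), and APX5 after median centring (-1.08) and quantile normalization (-1.13). With a pseudocount of 0.1 FPKM, 3 of the 5 passed: MDAR1 higher (1.39, adjusted p = 0.00792), and APX5 (-1.03) and SODCC1 lower.

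Metallothioneins, small cysteine-rich proteins that bind metals, moved in opposite directions. MT2a (LOC_Os01g05650) was at 289, 673 and 338 FPKM in wild type and at 24.7, 43.2 and 33.3 in nup1 (change -3.58 ± 0.37, adjusted p = 7.59e-05). MT2b (LOC_Os05g02070), among the 8 most abundant listed genes of nup1, was at 413, 548 and 772 FPKM in wild type and at 1557, 1077 and 1695 in nup1 (change 1.34 ± 0.34). The fall of MT2a passed in each fit without a library. The rise of MT2b ended without wild-type replicate 1 (adjusted p = 0.0243), wild-type replicate 2 (0.0102), nup1 replicate 1 (0.0201) or nup1 replicate 3 (0.0205), and after median centring.

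The endoplasmic reticulum chaperone BIP3 (LOC_Os05g35400), which helps secreted proteins fold, was at 8.53, 3.47 and 15.9 FPKM in wild type and at 85.4, 94.1 and 105 in nup1. Its change of 3.42 ± 0.43 (adjusted p = 0.000203) stayed between 2.91 and 3.87 when single libraries were left out. It was the only 1 of 9 heat shock and chaperone members listed.

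Of 20 jasmonate members 3 were fitted, and 1 passed in each direction, where 72.9% of all fitted genes passed. JAR1 (LOC_Os05g50890), the enzyme that joins jasmonate to isoleucine to give the active hormone, was at 90.6, 104 and 82.6 FPKM in wild type and at 31.2, 29.3 and 25.5 in nup1. It fell by 1.65 on the log2 scale (SE 0.23, adjusted p = 0.000313), and the call held in each fit without a library. AOS1 (LOC_Os03g55800), which acts at the start of jasmonate synthesis, went the other way, from 86.8 ± 51.7 to 199 ± 32.1 FPKM (change 1.33 ± 0.39, adjusted p = 0.00968). Its call was lost without any single library other than wild-type replicate 3 (adjusted p from 0.0191 to 0.0364), after median centring, with a pseudocount of 0.1 (adjusted p = 0.0123), with no filter on low values (0.0102) and with the filter at 5 FPKM (0.0101). JAZ12 (LOC_Os10g25290), a repressor of jasmonate signalling, had 45.8, 30.4 and 136 FPKM in wild type and 213, 145 and 168 in nup1. It did not pass (adjusted p = 0.0128), although it did without wild-type replicate 3 (2.18, adjusted p = 0.000411), as it did with quantile normalization (1.71, adjusted p = 0.00649).

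Of the gibberellin genes used, 3 of 7 were fitted, each with a lower mean in nup1 and 0 past the threshold in limma. The unadjusted p was under 0.05 for KAO and KO2. LOC_Os05g08540, entered as GA3ox1, was left out because its symbol could not be matched. It fell from 40.1 FPKM in wild type to 0.438 in nup1 (change -4.63) and passed, so the 0 holds only for the members used. CPS1, KO2 and KAO catalyse successive parts of gibberellin synthesis. KAO (LOC_Os06g02019) was at 6.90, 42.7 and 3.69 FPKM in wild type and at 1.69, 0.890 and 1.74 in nup1. Wild-type replicate 2 made up most of its group's mean, and the change was -2.29 ± 0.70 (adjusted p = 0.0113) with that library and -1.34 (adjusted p = 0.00387) without it. It also passed without wild-type replicate 3 (-2.95, adjusted p = 0.0022), after median centring (-2.48) and under quantile normalization (-2.49). CPS1 (LOC_Os02g17780) had 2.90, 8.74 and 1.49 FPKM in wild type and 2.67, 1.33 and 0.652 in nup1, with overlapping groups. Its change was -0.91 ± 0.49 (adjusted p = 0.0954) with wild-type replicate 2 and -0.37 (adjusted p = 0.334) without it. KO2 (LOC_Os06g37364) had means of 14.4 ± 2.07 and 7.41 ± 1.25 FPKM, a change of -0.87 ± 0.24, and passed after median centring (-1.07) or quantile normalization (-1.04).

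At stage 11 KAO, KO2 and CPS1 differed far more between the genotypes. The stage 11 wild-type means were 298 ± 45.1 FPKM for KAO, 78.9 ± 12.6 for KO2 and 48.4 ± 7.82 for CPS1, against 0.300 ± 0.125, 7.26 ± 2.96 and 2.19 ± 0.733 in nup1. The nup1 effect at stage 11 minus that at stage 10, tested as an interaction in limma, was -5.55 ± 0.85 for KAO (adjusted p = 0.00029), -2.46 ± 0.41 for KO2 (adjusted p = 0.0006) and -3.05 ± 0.63 for CPS1 (adjusted p = 0.00225). Each passed in all 12 fits without a library. Of the precursor enzymes fitted at both stages, CYP703A3 and TKPR1 had effects of 4.08 and 4.35 at stage 10 and of -1.47 and -1.16 at stage 11, a difference of -5.55 ± 0.89 (adjusted p = 0.000431) and of -5.51 ± 0.49 (adjusted p = 1.12e-05). CYP704B2 had effects of 2.26 and 2.30, a difference of 0.04 ± 1.51 (adjusted p = 0.994). Its stage 11 nup1 libraries were at 90.6, 0.973 and 1.45 FPKM, beside 0.568 ± 0.265 in wild type. The stage 11 effect of CYP704B2 thus came mostly from nup1 replicate 1. The 2 stage tables were made separately, and levels are compared across genotypes within each. Over the 1436 genes in both tables with a mean of 1 FPKM or more, 21.4% passed this test, as did 10 of the 41 named genes fitted at both stages.

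**Figure D4:**
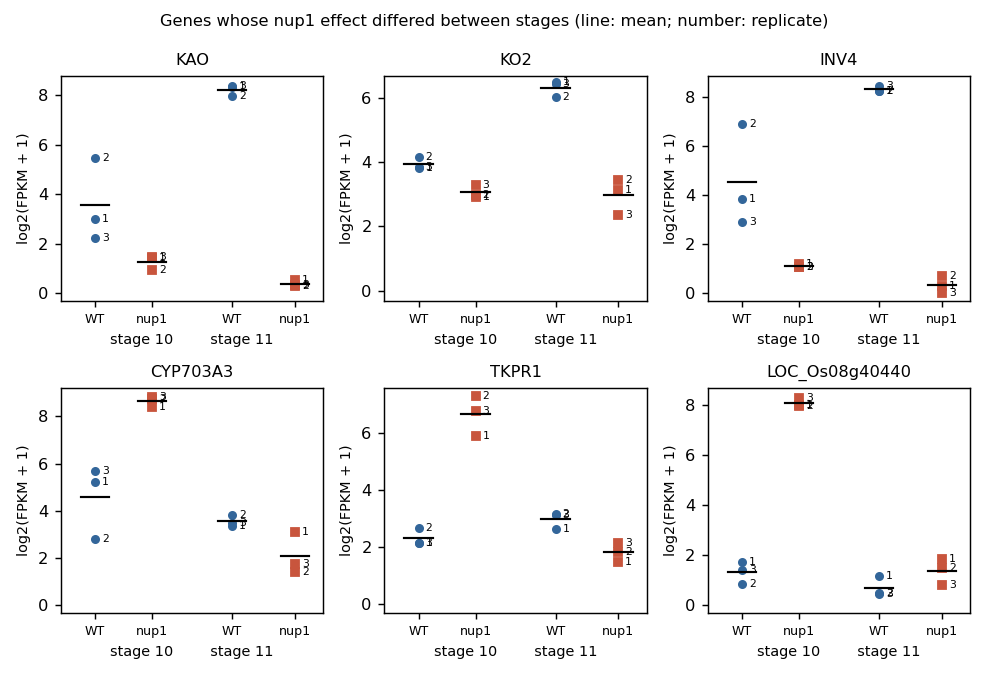
log2(FPKM + 1) of 6 genes whose nup1 effect differed between stages, for each library of both genotypes at stages 10 and 11 (numbers mark replicates, lines mark means). KAO and INV4 were highest in wild-type replicate 2 within stage 10, and LOC_Os08g40440 was high only in nup1 at stage 10, at 269 FPKM.

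Of 7 sugar supply and late pollen members 4 were fitted, and 3 fell and 1 rose past the threshold, where 33.1% of all fitted genes fell. An earlier account of these data names the 3 that fell, so the count is a description only. The falls numbered 2 without any single nup1 library or with a pseudocount of 5. MST8 (LOC_Os01g38670), a monosaccharide transporter, was at 101, 246 and 105 FPKM in wild type and at 0.116, 2.39 and 0.0931 in nup1 (change -6.43 ± 0.50, adjusted p = 2.54e-05). CSA (LOC_Os01g16810), a MYB factor that controls sugar delivery to the anther, was at 65.1, 60.2 and 42.9 FPKM in wild type and at 13.5, 22.0 and 20.1 in nup1 (change -1.55 ± 0.28). Neither gene overlapped between genotypes. INV4 (LOC_Os04g33720), a cell-wall invertase, was at 13.6, 118 and 6.43 FPKM in wild type and near 1.16 in nup1. Its change was -3.44 ± 0.84 with wild-type replicate 2 and -2.27 without it, and its call ended without nup1 replicate 1, 2 or 3 (adjusted p = 0.0142, 0.0177 and 0.0157) and with a pseudocount of 5 (adjusted p = 0.0136). SWEET11 (LOC_Os08g42350), a sugar exporter, rose from 118 ± 23.6 to 276 ± 44.4 FPKM, a call lost without wild-type replicate 1 (adjusted p = 0.0117) or nup1 replicate 1 (adjusted p = 0.0116).

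2 further lists, on phenylpropanoid and on starch and sucrose enzymes, were added after the values were seen. Of 10 phenylpropanoid members 5 were fitted, and 4 fell past the threshold, where 33.1% of all fitted genes did. PAL1 (LOC_Os02g41630), the entry enzyme, was at 2714, 3228 and 2776 FPKM in wild type and at 1390, 1403 and 1149 in nup1. Its change of -1.15 ± 0.28 did not pass without wild-type replicate 1, wild-type replicate 3, nup1 replicate 1 or nup1 replicate 3 (adjusted p from 0.0113 to 0.0198). It stayed between -1.20 and -1.05 in the fits without a library, and shrank to -0.30 under quantile normalization. The coenzyme A ligase 4CL1 (LOC_Os08g14760) was at 6.13, 8.44 and 6.91 FPKM in wild type and at 0.580, 0.498 and 0.506 in nup1 (change -2.41 ± 0.21). 4CL1 kept its call in each such fit. 4CL3 (LOC_Os02g08100) fell from 272 ± 17.2 to 126 ± 14.3 FPKM, a call lost without wild-type replicate 1 (adjusted p = 0.0105) or nup1 replicate 3 (adjusted p = 0.0122) and under quantile normalization (-0.90). Chalcone isomerase (CHI, LOC_Os03g60509), of flavonoid synthesis, fell by 1.58 on the log2 scale, a call lost without nup1 replicate 3 (adjusted p = 0.0126). 4CL5, another such ligase, missed the threshold at 2.12 ± 0.64 (adjusted p = 0.0106). It passed without wild-type replicate 3, whose 46.2 FPKM compared with 8.15 and 5.27 in replicates 1 and 2.

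Of 10 starch and sucrose members 4 were fitted. The cell-wall invertase CIN2 (LOC_Os04g33740) was at 49.7, 47.3 and 37.6 FPKM in wild type and at 107, 116 and 109 in nup1, so it was higher where INV4 was lower. The starch debranching enzyme ISA1 (LOC_Os08g40930) fell by 1.30 on the log2 scale, from 16.9 ± 1.17 to 6.26 ± 0.665 FPKM, and by 0.96 with a pseudocount of 5, under the fold limit. AGPS2 (LOC_Os08g25734), a subunit of the enzyme that makes ADP-glucose, rose by 1.04 ± 0.24, and its fold or adjusted p missed the limit without wild-type replicate 1 (0.96), nup1 replicate 1 (0.98) or nup1 replicate 3 (0.96) after median centring (0.84) and with a pseudocount of 5 (0.94). Sucrose synthase SUS1 had means of 1301 ± 439 and 593 ± 222 FPKM and did not pass (adjusted p = 0.018).

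Few markers of other cells were both listed and matched to a symbol. RBCS3, RBCS4 and LHCB, entered for green tissue, were listed at stage 10 but left out because their symbols could not be matched. HXK10, entered for late pollen, was listed but left out because its symbol lay elsewhere on the chromosome. The values of these members were not read here. The germ cell gene MEL2 (LOC_Os12g38460) was the only 1 of 9 meiosis and germ cell members listed, at 5.75, 4.49 and 5.94 FPKM in wild type and 2.79, 2.47 and 2.00 in nup1. It missed the threshold on fold (-0.90, adjusted p = 0.0049), and passed without wild-type replicate 2 (-1.01) and after median centring (-1.10) or quantile normalization (-1.19). Rubisco activase RCA (LOC_Os11g47970), a marker of green tissue, fell from 50.5 ± 11.3 to 23.7 ± 6.05 FPKM (change -1.06 ± 0.28). Its call was lost without wild-type replicate 1 (adjusted p = 0.0166), wild-type replicate 2 (0.0132), nup1 replicate 2 (0.023) or nup1 replicate 3 (0.022), and with a pseudocount of 5 (-0.95). None of the 8 members for other floral organs, 5 for stamen identity, 4 for autophagy or 2 housekeeping genes was listed. The part of other cell types in these results was not tested.

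**Figure D5:**
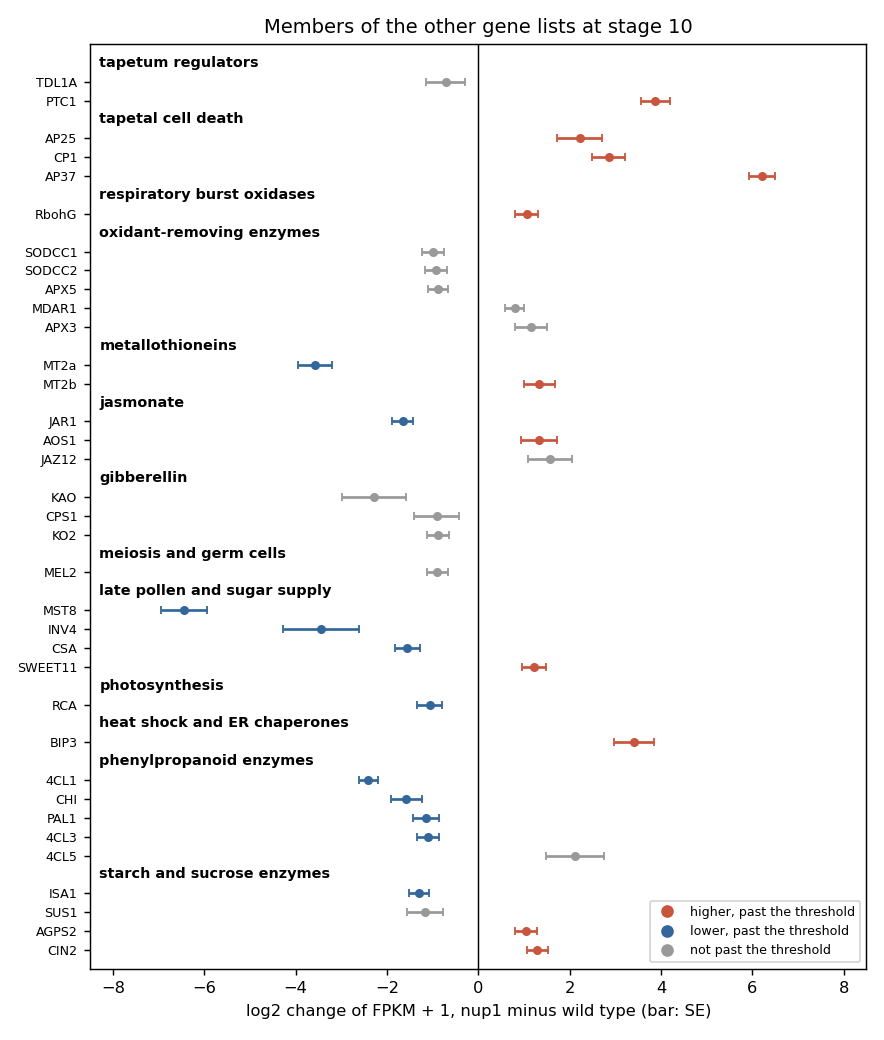
Change of log2(FPKM + 1) at stage 10, nup1 minus wild type, with its SE, for the fitted members of the lists other than pollen wall and cuticle, coloured where the threshold was passed. AP37 had the largest positive change (6.21) and MST8 the largest negative change (-6.43) among them.

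The extreme genes and the most abundant genes were mostly loci for which the sources used here give no symbol. The largest fall was that of LOC_Os03g56940, at 468, 3084 and 614 FPKM in wild type and at 0 (as listed), 1.34 and 0.731 in nup1 (change -9.24 ± 0.65, adjusted p = 1.84e-05). After RTS came LOC_Os04g33930, from 2210 ± 1266 to 6.14 ± 7.72 FPKM, and LOC_Os01g74480, from 731 ± 585 to 0.678 ± 0.651. LOC_Os02g04210, LOC_Os05g35690, LOC_Os07g40740 and LOC_Os02g32080 had changes of -8.19, -8.14, -7.44 and -7.30. In all 8 of these largest falls wild-type replicate 2 was the highest of the 6 libraries, and in all 8 the change stayed between -10.28 and -6.86 in each fit without a library.

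The largest rise was that of LOC_Os03g56890, at 0.162, 1.04 and 0.270 FPKM in wild type and at 477, 316 and 310 in nup1 (change 7.97 ± 0.30, adjusted p = 1.67e-06). LOC_Os04g58120 and LOC_Os02g01980 followed at 7.59 ± 0.39 and 7.36 ± 0.25, then PKS2. LOC_Os02g01190 was at 112, 2.29 and 103 FPKM in wild type and at 3376, 4265 and 5406 in nup1. Wild-type replicate 2 was far below its groupmates there, and the change was 6.98 ± 1.16 with it and 5.30 without it. LOC_Os02g45530 showed the same order of wild-type libraries, at 28.7, 0.501 and 17.1 FPKM, beside 1071, 1273 and 1351 in nup1, and its change was 7.04 ± 0.92 with that library and 5.73 without it. LOC_Os08g40440 and LOC_Os11g02165 had changes of 6.75 ± 0.28 and 6.69 ± 0.66.

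The make-up of the most abundant listed transcripts changed between genotypes. The 8 genes with the highest wild-type means, among them OsC6, RTS and PAL1, summed to 35240, 46794 and 35537 FPKM in the wild-type libraries and to 3422, 4166 and 2903 in nup1. LOC_Os01g41140 led them, at 6332, 10274 and 6797 FPKM in wild type and at 334, 536 and 265 in nup1. LOC_Os01g41170, LOC_Os10g05720, LOC_Os10g05750 and LOC_Os09g30320 had changes of -6.31, -6.42, -4.07 and -2.16, each with groups that did not overlap. The 8 genes highest in nup1 summed to 20740, 19921 and 27314 FPKM there and to 5902, 3341 and 7315 in wild type.

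LOC_Os09g35700 was the most abundant listed gene of nup1, at 4300, 5115 and 7022 FPKM, against 1643, 935 and 2170 in wild type (change 1.84 ± 0.39). That call was lost without nup1 replicate 3 (adjusted p = 0.0115). LOC_Os01g14850 rose by 2.75 ± 0.54, and by 2.11 without wild-type replicate 2, and kept its call in each fit without a library. LOC_Os11g02350 rose by 1.39 ± 0.41 and LOC_Os01g15270 by 1.18 ± 0.33. Each of these calls was lost in 5 of the 6 such fits, with the sole exception of nup1 replicate 2 for the former and wild-type replicate 3 for the latter (adjusted p up to 0.0386 and 0.0406), and after median centring. That of LOC_Os11g02350 was also lost with a pseudocount of 0.1 (adjusted p = 0.0116) and with no filter on low values (0.0108). LOC_Os10g05930 missed the threshold at 1.89 ± 0.60 (adjusted p = 0.0141), though not without wild-type replicate 1 (2.37, adjusted p = 0.00728) or under quantile normalization. Without wild-type replicate 2 its change was 1.11. SAMS1 (LOC_Os05g04510), which makes the methyl donor S-adenosylmethionine and was looked up after its value was seen, fell from 1838 ± 477 to 850 ± 142 FPKM, and its call was lost in each of the 6 fits without a library (adjusted p from 0.0129 to 0.0357) and under quantile normalization (-0.53).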

How the data were processed

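Per the series design text, the authors trimmed paired reads, aligned them with HISAT2 to the MSU rice genome (its release 7), and used Cufflinks to quantify genes and select those that differed. The submitters' processing notes name the same tools without versions. The deposited values are FPKM, 1 column per library, in 1 table per stage. Fragment totals are not in the tables, and the lowest values above 0 reach 3.08e-46, so low values are not whole-read steps and depth is unknown. Between 1 and 53 genes per stage 10 library were listed at 0.

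Changes were computed on log2(FPKM + 1) with limma 3.58.1 (trend option on, R 4.3.3), after a filter at a mean of 1 FPKM. The fit was also run on simulated data in which only a small share of genes was changed. Most genes passed with the deposited values, so that run does not test the fit in this setting. The stage difference was an interaction contrast over all 12 libraries. Alternatives were other pseudocounts, filters and scalings, no trend, a replicate block, and leaving out each library.

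Members and lists were chosen with earlier results of these data known. Named genes are the 8 largest rises and 8 largest falls with libraries that do not overlap and 10 FPKM or more in the higher group, the 8 highest means per genotype, and fitted list members. The tables hold locus identifiers only. Of 220 members entered from published assignments, 147 were used: 128 whose symbol lies on the same chromosome, within 10% of its length of the expected place, in the reference gene table (assembly ASM3414082v1), and 19 with no such symbol there, kept because an earlier account of these data names them (ACOS12, CYP704B2, DPW, PKS1, PKS2, TKPR1, ABCG15, ABCG26, NP1, STRL2, CER1, RbohG, MEL2, MST8 and CSA among those printed). The 73 members left out include some listed at stage 10, among them ABCG3, GPAT3, CATC, GA3ox1, HXK10, UGP2, RBCS3, RBCS4, LHCB, PAL7, F3H1 and AGPL4. A list's counts therefore cover only the members used. Reads shared between near-identical neighbouring genes could be split in ways the sources do not state.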

Additional observations from a re-analysis of the deposited data

Results flagged for a closer look

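The nup1 effect differed between stages in 10 of the 41 named genes fitted at both stages (limma interaction, adjusted p under 0.01), beside 21.4% of all genes fitted at both. The differences, stage 11 minus stage 10 on the log2 scale, were -6.06 for LOC_Os08g40440, -5.55 for KAO, -5.55 for CYP703A3, -5.51 for TKPR1, -4.54 for INV4, -3.05 for CPS1, -2.51 for TDL1A, -2.46 for KO2 and -1.60 for ABCG26. For LOC_Os10g05930 it was 4.40, since its nup1 effect was 1.89 at stage 10 and 6.29 at stage 11.

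The 10 differences were not equally stable. That of INV4 was lost in 7 of 12 fits without a library (adjusted p up to 0.0131, without wild-type stage 10 replicate 1), and that of TDL1A in 1 (adjusted p = 0.0113, without nup1 stage 10 replicate 3). The other 8 passed in all 12 fits, and their causes were not tested.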

How the results depend on the processing

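The count of genes past the threshold was 2449 with values as deposited and 1372 with a pseudocount of 5 FPKM, which lowers the fold of genes with low values. It stayed within 1.5 times under every other setting tried, and ranged from 1683 (without nup1 stage 10 replicate 3) to 2586 (without wild-type replicate 3) when single libraries were left out. Of the 16 lists, 29 members passed, with 21 to 35 in those fits. The stage difference passed in 308 genes and in 233 to 372 without a library. Median centring, quantile normalization, another filter (none, or a mean of 5 FPKM), a pseudocount of 0.1 and no trend were among these. No named gene changed sign under any setting. Of 60 named genes that passed, 43 did so in all 6 fits without a library.

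Replicate numbers were not taken to pair the samples: deviations of same-numbered libraries correlated at 0.038, 0.251 and 0.177. With the replicate block 2499 genes passed at stage 10 and 283 for the stage difference, where ABCG26 did not (adjusted p = 0.0121). At stage 10, the block ended the call of LOC_Os01g15270 (adjusted p = 0.0105) and 5 named genes that had not passed did so with it: OsC4, JAZ12, 4CL5, SUS1 and LOC_Os10g05930 (adjusted p from 0.00376 to 0.00831). Wild-type replicate 1 correlated best with nup1 replicate 3 (0.206), not with its own number.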

Other observations

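Genes with adjacent locus numbers were compared in direction, with no test of the counts. Among genes that passed, 167 pairs had locus numbers at most 10 apart. In 63 pairs both were higher in nup1, in 51 both were lower, and in 53 the directions were opposite. The directions matched in 68.3% of pairs, beside 50.4% if the directions of all passing genes were independent. There were 19 runs of 3 or more genes with gaps of at most 20, 9 higher and 10 lower. A run on chromosome 10 ended in NP1, where LOC_Os10g38020 and LOC_Os10g38040 rose by 1.33 and 1.17 beside 5.54 for NP1. The abundant LOC_Os01g41140 and LOC_Os01g41170 lay next to LOC_Os01g41180, which fell by 5.04 on the log2 scale.

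Opposite extremes also lay close together. The largest rise, LOC_Os03g56890, and the largest fall, LOC_Os03g56940, are near neighbours by number, and LOC_Os03g57000 and LOC_Os03g57010 beside them rose by 2.80 and 3.32. By chromosome, the share of passing genes that were higher in nup1 ran from 49.7% on chromosome 6 to 63.4% on chromosome 9. Over all passing genes 45.4% were lower in nup1 and the rest higher.

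Whether the nup1 difference at stage 10 runs against the wild-type change from stage 10 to 11 depended on the wild-type library taken as baseline. With separate baselines for each difference, the share of genes with opposite signs was 83.8% of 568 genes at the highest and 45.7% of 276 at the lowest, the lower shares arising where wild-type replicate 2 was the stage 11 baseline.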
